A study of Caenorhabditis elegans with 66 samples.

Results

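Nascent capped RNA of rpb-9 mutants was set against that of wild type at piRNA loci of Caenorhabditis elegans. The members are the 4 chromatin libraries of these genotypes among the 66 samples of the series, 2 of rpb-9 and 2 of wild type, chosen by their labels alone. After repeated lines had been dropped they held 97612 of the 169195 precursor entries of the table, at 9948 of its 11382 loci. An entry is 1 distinct sequence in 1 library, so a sequence seen in several libraries counts several times. Short capped RNA was sequenced from the chromatin fraction of isolated germ nuclei of young adults. The rpb-9 animals carried the nonsense allele mj261, which came from an EMS screen on a germline piRNA sensor. The table names the wild type libraries by the strain sx1316, which was matched to wild type by elimination, since its other names give rpb-9 and rescue, and whether these animals carried the sensor transgene is not stated for the capped RNA libraries. The labels give the tissue as whole animal, and the germ nuclei come from the study's methods. rpb-9 is represented by this 1 allele, and no label says whether the 2 libraries of a genotype came from separate cultures, so p-values measure only the spread between these libraries. In bulk nuclei, fewer germ nuclei with active piRNA loci and less RNA per nucleus cannot be told apart.

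piRNAs are the small RNAs bound by the Argonaute PRG-1 in the worm germline, where they mark foreign and unwanted transcripts for silencing. RNA polymerase II makes each one as a short capped precursor of its own, which is then trimmed at both ends, with the first base of the mature piRNA, a U, lying just inside the cap. Motif-dependent loci lie mostly in clusters on chromosome IV behind an upstream element known as the Ruby motif, whereas motif-independent loci lie at the promoters of many genes. RPB-9 is a small subunit of RNA polymerase II known from yeast for its part in start site choice and in the cleavage of transcripts when the enzyme moves backwards. Where a nascent precursor ends is therefore a record of where the polymerase stood, or where its RNA was cut.

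The sequences at 5 loci show how the classes differ and which loci the values below turn on. Each is 100 bases of the reference (ce11, the same assembly as WBcel235) on the strand of the locus, from 60 bases before to 39 after the first base of the precursor. Capitals mark the longest run of letters of CTGTTTCA, at least 5 of them. The run is sought between 60 and 25 bases before that start, where the motif lies, and runs nearer to the start are not marked. Of equally long runs only the first is marked, as at 21UR-4978, where gtttca is left unmarked. The loci were chosen after their values were seen, for high abundance (21UR-4978 at chrIV:16597271-16597370, plus strand, and 21UR-5842 at chrIV:16060672-16060771, minus strand), for a large fall (21UR-13733 at chrIV:5574829-5574928, minus strand), for a rise away from chromosome IV (21UR-12205 at chrII:5912489-5912588, plus strand) and for a rise of a motif-independent locus (chrII:8910152-8910251, minus strand).
21UR-4978: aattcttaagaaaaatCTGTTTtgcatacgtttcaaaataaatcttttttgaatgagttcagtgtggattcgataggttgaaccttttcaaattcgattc
21UR-5842: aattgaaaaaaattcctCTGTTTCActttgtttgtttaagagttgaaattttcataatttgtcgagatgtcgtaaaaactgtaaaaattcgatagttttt
21UR-13733: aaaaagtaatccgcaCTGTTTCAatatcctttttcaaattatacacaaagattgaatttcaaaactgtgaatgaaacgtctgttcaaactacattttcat
21UR-12205: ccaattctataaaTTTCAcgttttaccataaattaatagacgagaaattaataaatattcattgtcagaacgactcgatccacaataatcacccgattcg
motif-independent locus on II: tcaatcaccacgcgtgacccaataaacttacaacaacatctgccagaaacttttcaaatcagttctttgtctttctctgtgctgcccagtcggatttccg

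The 8 letters of CTGTTTCA, read on the strand of the locus in the 46 bases from 70 to 25 before the precursor start, stood before 1607 of the 5593 motif-dependent loci (28.7%) and 4 of the 4355 motif-independent loci (0.0918%), against 16.2% of all loci. Its inner letters GTTTC, a part of the same motif, stood before 69.8% of motif-dependent and 7.78% of motif-independent loci, against 42.7% of all loci. The share with the full motif was 31.1% in cluster I and 28.8% in cluster II of chromosome IV, and 4.11% (3 of 73) for motif-dependent loci on other chromosomes. The classes are named for their dependence on this motif, so the contrast between them follows from the classes and is no result. The match is of letters only, and no match says nothing of the factors bound there.

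Other sequence pairs show the ends of precursors. They are the most read sequence of 4 motif-dependent loci in each genotype, with the 21 bases of the mature piRNA in capitals after the 2 bases that are removed. They too were chosen after their values were seen, from loci where both libraries of each genotype agreed on a length that was longer in rpb-9. Loci of the opposite direction are counted below and are not printed, so the shared direction of the pairs is no result. Each precursor starts at the same base in both genotypes, as every sequence of the table does, so a pair differs in its 3′ end alone. 21UR-4536 lies at chrIV:14931033-14931082, 21UR-1490 at chrIV:15373190-15373220, 21UR-2816 at chrIV:14961929-14961966 and 21UR-4819 at chrIV:14495694-14495724, all on the plus strand.
21UR-4536 in rpb-9: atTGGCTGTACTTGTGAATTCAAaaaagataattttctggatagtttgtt
21UR-4536 in wild type: atTGGCTGTACTTGTGAATTCAAaaaagat
21UR-1490 in rpb-9: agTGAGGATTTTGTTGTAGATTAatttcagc
21UR-1490 in wild type: agTGAGGATTTTGTTGTAGATTAatt
21UR-2816 in rpb-9: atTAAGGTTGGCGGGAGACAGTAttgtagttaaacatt
21UR-2816 in wild type: atTAAGGTTGGCGGGAGACAGTAttgtagt
21UR-4819 in rpb-9: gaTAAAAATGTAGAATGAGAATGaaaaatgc
21UR-4819 in wild type: gaTAAAAATGTAGAATGAGAATGaaaaat

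The libraries held 1121176 and 2068349 counts in rpb-9 against 1832545 and 2125043 counts in wild type. They held 21103 and 21777 distinct sequences in rpb-9, against 27540 and 27192 in wild type, and touched 5325 and 5502 loci in rpb-9, against 6813 and 7017 in wild type. Many of these counts came from loci that overlap structural RNA genes (snoRNA, snRNA and the like), which took 57.8 and 56.4% of counts in rpb-9 and 65.5 and 77.8% in wild type. One snoRNA gene, T26A8.6, carries a piRNA annotation (21UR-2844) and alone gave 271201 and 461448 counts in rpb-9 against 323698 and 644058 in wild type, so it set the sum of the class it is filed under. Its level differed more between the 2 wild type libraries than between genotypes. Sums below therefore leave out the 161 loci in structural RNA genes unless they are named, a choice made after seeing the data, and the tests of single loci kept them. The level of the rpb-9 transcript itself is not among these values, so the labels were not checked against the targeted gene.

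Motif-dependent loci gave less nascent RNA in both rpb-9 libraries. The normalized signal used here is the read count multiplied by 1 constant per library, recovered from the deposited values. Its sum over motif-dependent loci was 7748 and 9632 in rpb-9 against 18927 and 21458 in wild type. Both rpb-9 libraries lay below both wild type libraries, and the mean in rpb-9, 8690 ± 1332, was 43.0% of that in wild type, 20193 ± 1789 (SD, n = 2 each). With 2 against 2 libraries the exact permutation test cannot give a p below 0.33, which is what it gave (2-sided). With the structural RNA loci kept, the sum was 91669 ± 9775 in rpb-9 and 117146 ± 62181 in wild type, and the genotypes overlapped (exact permutation p = 1). That log2 ratio of -0.35 turned to 0.33 without wild type replicate 2.

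Motif-independent loci stood higher in both rpb-9 libraries. Their summed signal was 125527 and 162879 in rpb-9, against 85385 and 80013 in wild type. The 2 genotypes did not overlap, and the mean in rpb-9, 144203 ± 26412, was 174% of that in wild type, 82699 ± 3799 (exact permutation p = 0.33, the lowest possible). The loci in ndk-1, a nucleoside diphosphate kinase gene, carried 47.2 and 52.5% of this signal in rpb-9 and 42.7 and 44.4% in wild type. Without them the sum was 66314 and 77413 in rpb-9 against 48929 and 44487 in wild type, or 154%, and the genotypes still did not overlap. With structural RNA loci the sums were 264141 in rpb-9 and 262342 in wild type on average (exact permutation p = 0.667), a log2 ratio of 0.01 that became -0.18 without rpb-9 replicate 2 and -0.16 without wild type replicate 1.

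The ratio of the 2 classes within a library needs no scaling between libraries. By counts, motif-dependent over motif-independent was 0.0617 and 0.0591 in rpb-9, against 0.222 and 0.268 in wild type. Without ndk-1 it was 0.117 and 0.124 in rpb-9, against 0.387 and 0.482 in wild type. By distinct sequences it was 0.408 and 0.423 in rpb-9, against 0.980 and 0.929 in wild type. By loci with at least 1 read it was 0.805 and 0.800 in rpb-9, against 1.37 and 1.35 in wild type. With ndk-1 kept and structural RNA loci left out, the 3 ratios were lower in both rpb-9 libraries (exact permutation p = 0.33 each). With structural RNA loci as well, motif-dependent loci took 26.8 and 24.9% of counts in rpb-9 and 24.2 and 35.3% in wild type, where the genotypes overlapped. By distinct sequences they took 28.3 and 28.9% in rpb-9 against 48.3 and 47.1% in wild type. In the rescue strain, which carries mj261 and the transgene mjSi70, the chromatin libraries gave 0.0605 and 0.0837 by counts, 1 value within and 1 above those of rpb-9. By distinct sequences they gave 0.532 and 0.531, and by loci 0.992 and 1.03, above both rpb-9 libraries and below both wild type libraries.

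The shortfall was spread unevenly over the genome. Cluster I, whose loci start between 4789336 and 6994411 of chromosome IV, gave a signal of 182 and 202 in rpb-9 against 1011 and 1167 in wild type, or 17.6% of wild type. Cluster II, whose loci start between 13568051 and 17199377, gave 7208 and 8896 in rpb-9 against 17695 and 20058 in wild type, or 42.7%. Within each library cluster I stood at 2.52 and 2.27% of cluster II in rpb-9, against 5.71 and 5.82% in wild type (exact permutation p = 0.33), so cluster I was lower relative to cluster II in both rpb-9 libraries. The motif-dependent loci that lie elsewhere on chromosome IV gave 46.3% of wild type. Those on other chromosomes were higher, with a signal of 322 and 478 in rpb-9 against 129 and 128 in wild type, a 3.12-fold difference. Of this, 3 loci called higher below (21UR-12205, 21UR-13977 and 21UR-9572) gave 193 and 327 in rpb-9 against 56.5 and 43.2 in wild type. The others gave 129 and 152 in rpb-9 against 72.6 and 84.6 in wild type, a 1.79-fold difference.

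**Figure D1:**
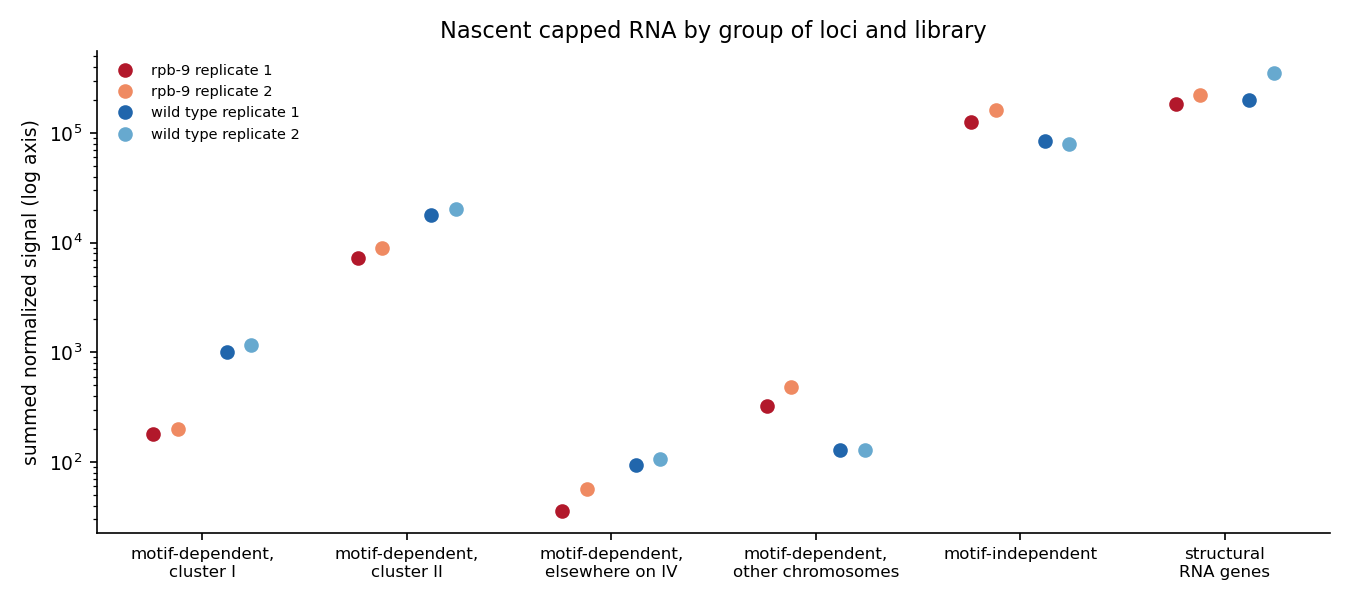
Summed normalized signal (log axis) of each library for groups of loci, with 1 point a library, rpb-9 to the left of wild type in each group; the first 5 groups leave out structural RNA genes, which form the last. Cluster I stands lowest in rpb-9 relative to wild type (17.6% of wild type), motif-dependent loci on other chromosomes and motif-independent loci stand above wild type, and structural RNA genes overlap between genotypes.

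Fewer motif-dependent loci were seen at all. Of 5567 such loci, 1491 had a read in both rpb-9 libraries and 2789 in both wild type libraries. Reads in both wild type libraries and in no rpb-9 library were found at 729 loci, and the opposite at 41. Of 4220 motif-independent loci, 2297 had a read in both rpb-9 libraries and 2223 in both wild type libraries, with 129 seen in both of wild type alone and 160 in both of rpb-9 alone. A locus without a read is one not seen at this depth.

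Single loci were compared by the quasi-likelihood test of edgeR, with the constants as library sizes, where at least 2 of the 4 libraries held at least 10 counts. Of the 2830 loci tested, 146 (5.16%) were called lower in rpb-9 and 78 (2.76%) higher at an adjusted p under 0.05 (Benjamini-Hochberg). Motif-dependent loci made up 140 of those called lower and 5 of those called higher, out of 1325 tested of 5593. Motif-independent loci made up 6 of those called lower and 73 of those called higher, out of 1505 tested of 4355. The counts of calls rest on few libraries: 42 loci were called without rpb-9 replicate 1, 365 without rpb-9 replicate 2, 36 without wild type replicate 1 and 88 without wild type replicate 2, and 0 when all 12 capped RNA libraries shared 1 estimate of the spread in edgeR (491 at an unadjusted p under 0.05). With TMM factors 66 loci were called lower and 85 higher, against 146 and 78 with the constants. Both rpb-9 libraries lay below both wild type libraries at 1105 loci (39%), and 925 of these were motif-dependent. Both lay above at 692 loci (24.5%), of which 653 were motif-independent.

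The median log2 fold change of rpb-9 over wild type was -1.43 over the motif-dependent loci tested (quartiles -2.43 and -0.66), 0.57 over the motif-independent ones (-0.07 and 1.21) and -0.29 over all loci tested. Scaling by TMM moved the median of all loci to -0.06 and those of the classes to -1.22 and 0.78. A change of scaling moves all loci by about the same amount, so it cannot test the gap between the classes. The filter itself favours loci that are high in 1 genotype: 417 motif-dependent loci reached 10 counts in wild type libraries alone and 7 in rpb-9 libraries alone. Among the 901 that reached it in libraries of both genotypes, the median was -0.99, with 768 below 0 and 133 above, and 83 were called lower and 4 higher. Among the 1323 motif-independent loci that did so, the median was 0.54, with 327 below 0 and 996 above, and 4 were called lower and 52 higher.

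By region, the median over motif-dependent loci tested was -2.87 in cluster I (82 tested of 694, 20 called lower and 0 higher) and -1.39 in cluster II (1216 of 4728, 119 lower and 2 higher). Elsewhere on chromosome IV it was -0.67 (12 of 98, 1 lower). On other chromosomes it was 1.40 (15 of 73, 12 above 0, 3 called higher). In cluster I, 81 of the 82 loci tested lay below 0.

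Loci of low, middle and high mean count had medians of -1.62, -1.40 and -1.40, so depth of reading changed the median little. It changed the calls more, with 18, 21 and 100 loci called lower among 439, 439 and 440. Loci with the full motif had a median of -1.56 (344 tested, 39 called lower, 0 higher) and those without it a median of -1.40 (981 tested, 101 lower, 5 higher). The full motif stood before 27.9% of the motif-dependent loci called lower, close to its 28.7% among all motif-dependent loci.

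**Figure D2:**
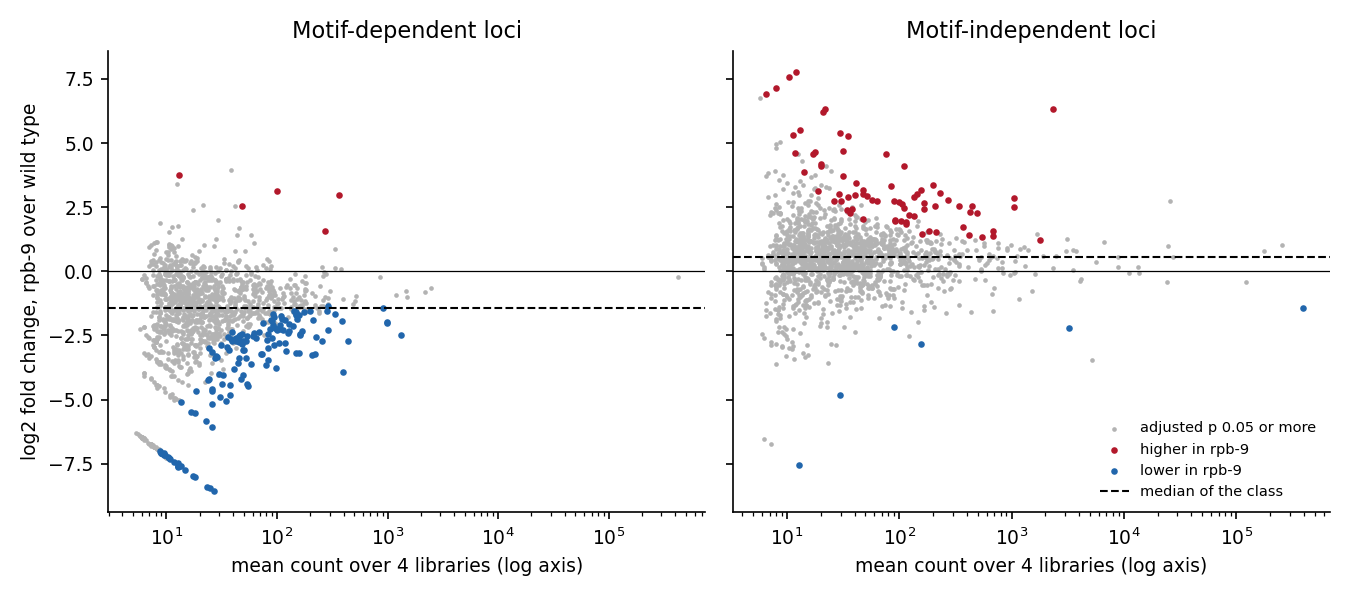
Log2 fold change of rpb-9 over wild type against the mean count over 4 libraries (log axis), 1 point a locus, with loci called higher in rpb-9 in red and lower in blue and the median of each class as a dashed line. Motif-dependent loci centre at -1.43 and motif-independent loci at 0.57; the steep line of points at the lower left of the motif-dependent panel is made of loci with no count in rpb-9, whose fitted value depends on the prior count.

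Among the motif-dependent loci with most signal in wild type, 21UR-2844 (the snoRNA T26A8.6) had a log2 fold change of -0.22 ± 0.47 (SE, edgeR adjusted p = 0.785). 21UR-458, which lies in the snRNA gene smy-12, had 1223 and 2284 counts in rpb-9 against 2421 and 3928 in wild type, a log2 fold change of -0.67 ± 0.41 (edgeR adjusted p = 0.295). 21UR-4978 had 1068 and 1736 counts in rpb-9 against 3351 and 2604 in wild type. By normalized signal its 2 genotypes did not overlap, with 301 and 332 in rpb-9 against 553 and 559 in wild type, but the log2 fold change of -0.81 ± 0.31 did not pass (edgeR adjusted p = 0.117).

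Of the next most abundant loci outside structural RNA genes, 21UR-5842 fell. It had 202 and 493 counts in rpb-9 against 2499 and 2064 in wild type, a log2 fold change of -2.50 ± 0.37 (edgeR adjusted p = 0.0137). 21UR-5491 had 544 and 1319 counts in rpb-9 against 1606 and 2526 in wild type, with an adjusted p of 0.158 in edgeR, and 21UR-3180 had 601 and 1429 in rpb-9 against 1532 and 2332 in wild type, with an adjusted p of 0.250. Outside structural RNA genes the most abundant loci thus spanned log2 fold changes from -2.50 to -0.77, and whether they differed from each other was not tested. The motif is complete at 21UR-5842, and at 21UR-4978 6 of its letters stand in a run. Without rpb-9 replicate 1 the adjusted p of 21UR-5842 was 0.0505 in edgeR.

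The 3 largest falls called had no count in either rpb-9 library, and all lay in cluster I. All 3 reached the count minimum of the filter in wild type libraries alone, so their direction is no separate result. 21UR-1816, antisense to tat-2 at chrIV:4834608-4834628, had 0 and 0 counts in rpb-9 against 68 and 39 in wild type. Set against a floor of 3 counts per library this is at least 13.8-fold lower. 21UR-3187, antisense to fkh-7 at chrIV:5607749-5607769, had 0 and 0 counts in rpb-9 against 79 and 21 in wild type, at least 12.4-fold lower. 21UR-6424 at chrIV:6305452-6305472 had 0 and 0 in rpb-9 against 47 and 46 in wild type, also at least 12.4-fold lower. The edgeR adjusted p-values of the 3 loci were 0.0181, 0.0292 and 0.0196. Without rpb-9 replicate 1 those of 21UR-3187 and 21UR-6424 were 0.0572 and 0.0505.

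Where every library held more than 3 counts, the 3 largest falls were also deep, and 2 of them lay in cluster I. 21UR-13733, whose complete motif starts 45 bases before the precursor, had 5 and 4 counts in rpb-9 against 108 and 81 in wild type, a log2 fold change of -4.03 ± 0.62 (edgeR adjusted p = 0.0143). That locus reached the count minimum of the filter in wild type libraries alone. 21UR-8044, in an intron of Y4C6B.4 at chrIV:5326813-5326833, had 23 and 60 counts in rpb-9 against 796 and 690 in wild type, a log2 fold change of -3.94 ± 0.42 (edgeR adjusted p = 0.0137). 21UR-251, in cluster II at chrIV:14311291-14311311 and antisense to Y64G10A.7, had 7 and 12 counts in rpb-9 against 203 and 98 in wild type, a log2 fold change of -3.65 ± 0.54 (edgeR adjusted p = 0.0137). The table gives the strand of each sequence, and these counts are of the strand of the piRNA. Without rpb-9 replicate 1 the edgeR adjusted p of 21UR-251 was 0.0505.

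The 5 motif-dependent loci called higher include 3 that lie outside chromosome IV within genes. 21UR-12205, in an intron of cgt-3 (a ceramide glucosyltransferase gene) and with only the run TTTCA before it, had 126 and 228 counts in rpb-9 against 33 and 16 in wild type, a log2 fold change of 3.14 ± 0.46 (edgeR adjusted p = 0.0137). 21UR-13977, in an exon of C15H11.1 at chrV:14393808-14393828, had 321 and 952 counts in rpb-9 against 105 and 79 in wild type (2.99 ± 0.43 on the log2 scale, edgeR adjusted p = 0.0137). 21UR-9572, in an intron of the kinesin gene klp-7 on chromosome III, had 237 and 528 counts in rpb-9 against 204 and 106 in wild type (1.57 ± 0.39, edgeR adjusted p = 0.0460). None of these 3 has the full motif in its window. The first 2 kept their call with any 1 library left out, while the adjusted p of 21UR-9572 lay between 0.0572 and 0.146 in edgeR with 1 library left out.

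The other two lie in cluster II. 21UR-4377 had 58 and 103 counts in rpb-9 against 17 and 16 in wild type (2.53 ± 0.52 on the log2 scale, edgeR adjusted p = 0.0315). 21UR-5360 had 18 and 30 counts in rpb-9 against 2 and 2 in wild type (edgeR adjusted p = 0.0491), and its sequence has 2 copies in the genome, between which reads cannot be assigned. It reached the count minimum of the filter in rpb-9 libraries alone. With 1 library left out, the edgeR adjusted p of 21UR-4377 was 0.0523 to 0.0925, and that of 21UR-5360 was 0.146 without wild type replicate 1 and 0.117 without wild type replicate 2. Among piRNAs that the study names, 21UR-1 and 21UR-8099 were too sparse here to test. 21UR-1 had 6 and 3 counts in rpb-9 against 4 and 0 in wild type, and 21UR-8099, in an intron of C39H7.4, had 0 and 0 in rpb-9 against 6 and 0 in wild type.

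The median of motif-independent loci lay above 0 on every chromosome. The median log2 fold change over those tested lay between 0.39 on chromosome II (222 tested, 15 called higher) and 0.61 on chromosome V (282 tested, 13 called higher) for whole chromosomes other than IV. On chromosome IV it was 0.62 outside the clusters (214 tested), 0.64 within the bounds of cluster I (44 tested) and 0.08 within those of cluster II (38 tested). Motif-dependent and motif-independent loci of the same stretch of chromosome IV, cluster I, thus had medians of -2.87 and 0.64. Both medians include loci that passed the filter through 1 genotype alone, which widens the gap between them by an amount not measured here.

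By position, 362 of those tested lay in exons of protein-coding genes on the same strand, of which 26 were called higher and 1 lower (median 0.54). Of the 996 with no gene on their strand, 39 were called higher and 3 lower. Motif-dependent loci with no gene on their strand gave 117 lower and 2 higher of 1088, and those in introns 17 lower and 2 higher of 195.

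The motif-independent loci with the most signal in wild type lay in annotated genes, 2 of them of noncoding RNA. The locus in the snoRNA gene W04D2.7 (chrV:12491282-12491302) fell, with 141786 and 232976 counts in rpb-9 against 565097 and 623776 in wild type, a log2 fold change of -1.43 ± 0.36 (edgeR adjusted p = 0.0491). The call was lost without either rpb-9 library (adjusted p of 0.226 and 0.235 in edgeR) and with TMM factors (0.0606). The locus in an exon of ndk-1 on chromosome I had 208195 and 443804 counts in rpb-9 against 217787 and 163144 in wild type (1.02 ± 0.36 on the log2 scale, edgeR adjusted p = 0.0977). The locus in the ncRNA gene ZK265.11, also on chromosome I, had 65811 and 128290 counts in rpb-9 against 135617 and 162202 in wild type (-0.41 ± 0.37, edgeR adjusted p = 0.482). Structural RNA loci as a group did not follow 1 direction, with a median of 0.31 over 72 tested, 2 called lower and 3 higher.

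Of the largest rises among motif-independent loci, 2 had almost no reads in wild type. These 2 reached the count minimum of the filter in rpb-9 libraries alone, so their direction is no separate result. The locus at chrIV:13189752-13189772, antisense to F58D2.5, had 35 and 51 counts in rpb-9 against 0 and 1 in wild type (edgeR adjusted p = 0.0183), and that at chrIV:2902217-2902237 had 19 and 64 in rpb-9 against 0 and 1 in wild type (edgeR adjusted p = 0.0268). The third, at chrIV:6348127-6348147, had 62 and 9184 counts in rpb-9 against 67 and 51 in wild type. It rests on 1 library, with a log2 fold change of 6.33 that was 0.67 without rpb-9 replicate 2, and its sequence has 7 copies in the genome. The first 2 had adjusted p-values of 0.0518 and 0.0714 in edgeR without wild type replicate 1. The locus on chromosome II printed above had 166 and 249 counts in rpb-9 against 10 and 18 in wild type, a log2 fold change of 4.11 ± 0.52 (edgeR adjusted p = 0.0137).

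Some rises in exons were picked out after their values were seen. C17C3.15 (chrII:5571243-5571263) had 67 and 83 counts in rpb-9 against 4 and 12 in wild type (3.45 ± 0.70 on the log2 scale, edgeR adjusted p = 0.0314). C38D9.2 (chrV:17569336-17569356) had 38 and 78 in rpb-9 against 2 and 1 in wild type, and wago-10 (chrV:343462-343482), a gene of the worm-specific Argonaute family, had 62 and 73 in rpb-9 against 1 and 3 in wild type (edgeR adjusted p = 0.0137 for both). In all 3 genes every rpb-9 library stood above every wild type library, but they were chosen as rises, so this is no separate result. C38D9.2 and wago-10 also reached the count minimum of the filter in rpb-9 libraries alone. Over all 2830 loci tested, both rpb-9 libraries lay above both wild type libraries at 692 (24.5%). The call of C17C3.15 was lost without rpb-9 replicate 1 (0.0572) and without wild type replicate 1 (0.0757).

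The 6 motif-independent loci called lower were W04D2.7 and 5 others. At chrII:4227125-4227145, antisense to C16A11.4, there were 3 and 0 counts in rpb-9 against 57 and 59 in wild type. In an exon of Y110A2AR.1 there were 0 and 0 in rpb-9 against 29 and 22 in wild type, at least 6.70-fold lower against the floor of 3 counts per library. The locus antisense to C16A11.4 and that in Y110A2AR.1 reached the count minimum of the filter in wild type libraries alone. The loci at chrIV:9067996-9068016 (38 and 23 in rpb-9 against 261 and 300 in wild type), at chrV:15059585-15059605 (747 and 1110 in rpb-9 against 8387 and 2696 in wild type) and in an intron of T16G12.12 (17 and 42 in rpb-9 against 130 and 173 in wild type) had log2 fold changes of -2.85, -2.22 and -2.17. In edgeR fits without 1 library the adjusted p went up to 0.0572 for Y110A2AR.1 and to 0.0559, 0.0785 and 0.134 for these 3, and with TMM factors it was 0.0535 for the locus on chromosome II.

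Mature motif-dependent piRNAs of a separate small RNA table gave a second readout of the same loci. That table lists only piRNAs that are lower in rpb-9, as pooled log2(RPM + 1) of the authors, so its direction is fixed and is no result. It matched 2259 of the 5141 motif-dependent loci with an annotated piRNA gene, of which 567 were tested here. Over these 567 the median nascent log2 fold change was -1.43 and the median mature difference -1.68. The added 1 shrinks mature differences at low values, so the medians are on unlike scales. Across the loci the 2 changes had a Pearson correlation of 0.0613 and a Spearman correlation of 0.0902, as a description, since loci of 1 library share its depth. A list of falls alone also narrows the range of mature change, which can lower a correlation.

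Motif-dependent precursors had a higher median length in both rpb-9 libraries. Over distinct sequences, each counted once, the median length was 31 and 31 nt in rpb-9 against 29 and 29 nt in wild type (exact permutation p = 0.33, the lowest possible). The mean was 33.8 and 33.6 nt in rpb-9, against 31.9 and 31.9 nt in wild type. The difference of the medians, 2 nt, exceeded any difference between libraries of 1 genotype, which was 0. Because the table holds only sequences that start 2 nt before the piRNA, the length places the 3′ end and says nothing of start sites.

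Motif-independent precursors did not show it, with medians of 35 and 34 nt in rpb-9 against 35 and 35 nt in wild type. Their mean was 37.4 and 36.4 nt in rpb-9 and 37.3 and 38.3 nt in wild type, and the genotypes overlapped. Within each library the motif-dependent median lay 4 and 3 nt below the motif-independent one in rpb-9, against 6 and 6 nt below it in wild type. For both classes together the medians were 34 and 33 nt in rpb-9 against 31 and 31 nt in wild type, and the share of motif-dependent sequences, the shorter class, differed too, as the ratios above give.

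The longer median was found in each part of chromosome IV. It was 30 and 31 nt in rpb-9 against 28 and 27 nt in wild type for cluster I, and 31 and 31 nt in rpb-9 against 29 and 29 nt in wild type for cluster II. Elsewhere on chromosome IV it was 33.5 and 32 nt in rpb-9 against 30.5 and 27 nt in wild type. On other chromosomes, where abundance was higher in rpb-9, the genotypes overlapped at 37 and 35 nt in rpb-9 against 33 and 36.5 nt in wild type. At loci read in all 4 libraries the medians were 31 and 31 nt in rpb-9 against 29 and 30 nt in wild type.

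Weighting each sequence by its reads gave medians of 34 and 35 nt in rpb-9 and 34 and 35 nt in wild type, since T26A8.6 then supplies most of the weight. Without structural RNA loci the weighted medians were 30 and 30 nt in rpb-9 against 28 and 27 nt in wild type. In the rescue strain the chromatin median over distinct sequences was 27 and 27 nt, below that of both genotypes. In the nucleoplasm the median was 30 and 30 nt in rpb-9 against 28 and 27 nt in wild type.

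The distribution of lengths had a tall peak below 40 nt and a low, broad one above. The most common length from 18 to 38 nt was 28 and 28 nt in rpb-9, against 26 and 24 nt in wild type. From 38 to 65 nt, the window set beforehand, it was 39 and 40 nt in rpb-9 against 38 and 38 nt in wild type, at or near the lower edge. From 42 to 65 nt, a window set after seeing the data, it was 50 and 50 nt in rpb-9, against 45 and 45 nt in wild type. The second peak holds few sequences, at 118 and 107 at its top in rpb-9 and 171 and 170 in wild type. In motif-independent sequences the first peak was at 23 and 20 nt in rpb-9 and 23 and 22 nt in wild type.

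Precursors of 40 nt or more made up 26.2 and 25.9% of motif-dependent sequences in rpb-9 against 20.8 and 21.5% in wild type, a difference of 4.89 points (exact permutation p = 0.33). Among motif-independent sequences they made up 39.7 and 36.7% in rpb-9 and 38.8 and 41.6% in wild type, where the genotypes overlapped. By reads the direction depended on structural RNA loci. With them, as above, the motif-dependent share was 23.7 and 30.2% in rpb-9 against 37.3 and 34.9% in wild type, and without them it was 17.3 and 16.5% in rpb-9 against 12.8 and 11.9% in wild type. By distinct sequences it was 25.8 and 25.6% in rpb-9 against 20.5 and 21.1% in wild type without them.

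**Figure D3:**
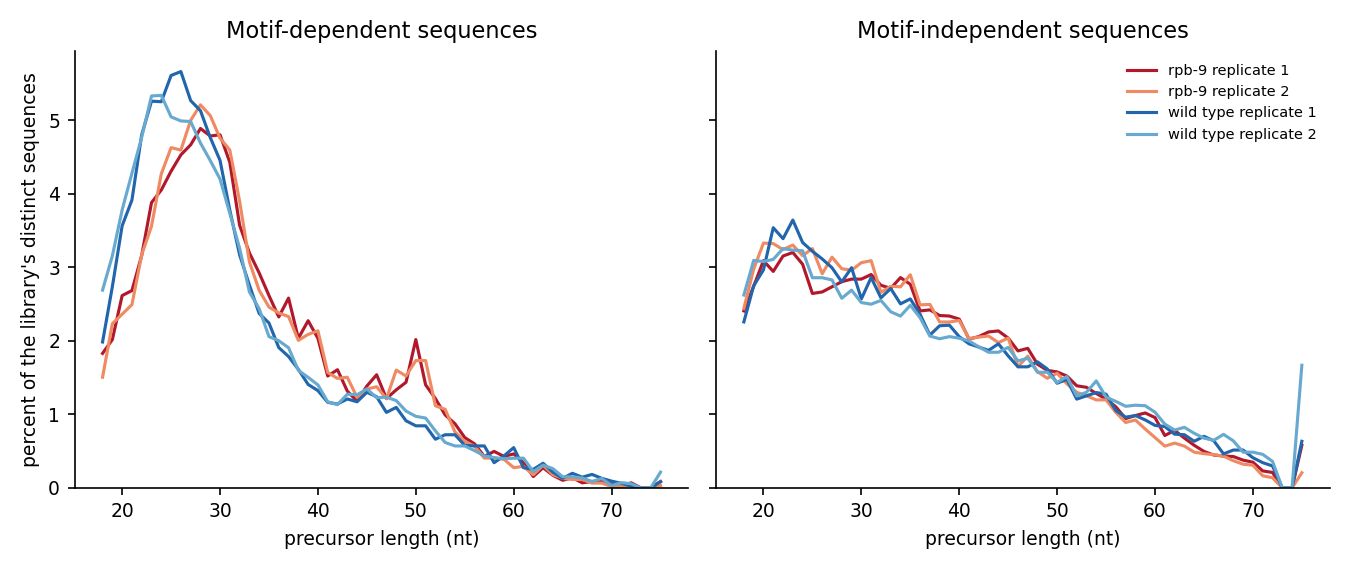
Percent of a library's distinct sequences at each precursor length (nt), with 1 line a library, structural RNA genes left out; the step at 75 nt is the read length, where reads without adapter collect. In motif-dependent sequences the first peak stands at 28 nt in both rpb-9 libraries and at 26 and 24 nt in wild type, and the 4 lines of motif-independent sequences lie closer together.

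Taking abundance and length at once, the shortfall was deepest among motif-dependent precursors of 18 to 25 nt. Their signal in rpb-9 was 30.3% of wild type at 18 to 21 nt, 28.9% at 22 to 25 nt, 39.8% at 26 to 29 nt, 53.5% at 30 to 33 nt and 63.4% at 34 to 39 nt. Above that it was 53.6% at 40 to 47 nt, 87.6% at 48 to 52 nt and 47.8% at 53 to 75 nt. At 48 to 52 nt the signal was 399 and 480 in rpb-9 against 500.1 and 502.6 in wild type, so the libraries still did not overlap. These length classes were not set beforehand. The class of 48 to 52 nt holds the second peak of rpb-9, at 50 nt, so its high percentage is no separate result.

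Over broader classes, precursors of 18 to 39 nt gave 6404 and 8043 in rpb-9 against 16496 and 18910 in wild type, or 40.8%. Those of 40 to 75 nt gave 1344 and 1589 in rpb-9 against 2431 and 2548 in wild type, or 58.9%. Long precursors thus gave less signal in rpb-9 while making up more of the class. Motif-independent precursors of 18 to 39 nt gave 193% of wild type and those of 40 to 75 nt 142%, and without ndk-1 these were 173 and 128%.

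**Figure D4:**
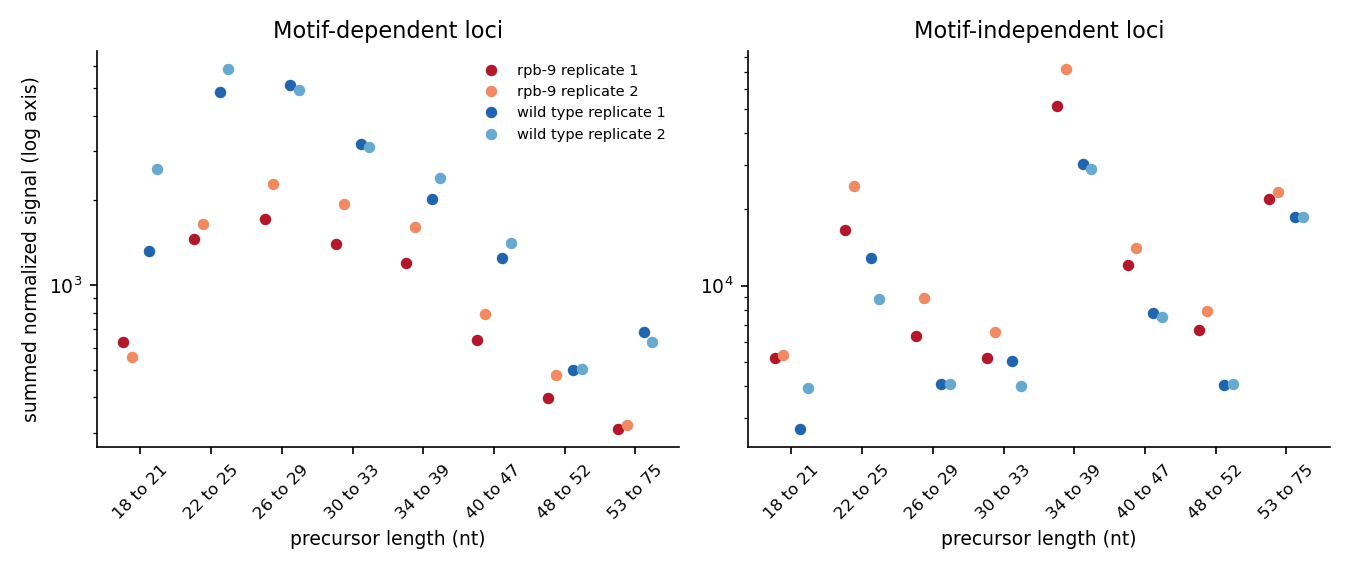
Summed normalized signal (log axis) of motif-dependent and motif-independent loci in 8 classes of precursor length (nt), with 1 point a library, rpb-9 to the left of wild type, structural RNA genes left out. Motif-dependent points of rpb-9 lie lowest against wild type at 22 to 25 nt (28.9%) and nearest to it at 48 to 52 nt (87.6%). The classes were not set beforehand, and that of 48 to 52 nt holds the second peak of rpb-9.

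The difference in length did not resolve to single loci. Mean length per locus was compared with limma at loci with at least 5 distinct sequences in each of the 4 libraries. Of 792 loci, 0 (0%) passed an adjusted p of 0.05, the lowest adjusted p was 0.457, and 75 had an unadjusted p under 0.05, of which 24 were longer in rpb-9. The median difference was 0.39 nt over 224 motif-dependent loci (128 longer, 96 shorter) and -0.92 nt over 568 motif-independent loci (195 longer, 371 shorter). With each sequence weighted by its reads the motif-dependent median was 1.11 nt, with 163 longer and 61 shorter, and again 0 of 792 loci passed (102 at an unadjusted p under 0.05 in limma).

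The loci of lowest p did not pass. The locus in an exon of hil-4, a linker histone gene on chromosome V, had mean lengths of 52.6 and 53.8 nt in rpb-9 against 46.0 and 41.6 nt in wild type. That in an intron of Y37D8A.6 on chromosome III had 39 and 38.6 nt in rpb-9 against 31.2 and 26 nt in wild type. In the other direction 21UR-3338, in the snRNA gene smy-8, had 39.5 and 40.8 nt in rpb-9 against 48.6 and 51.4 nt in wild type. All 3 had a limma adjusted p of 0.457.

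The most read length was compared where each library held at least 20 reads of a locus and both libraries of a genotype agreed. Of 93 such motif-dependent loci among 240, 74 had the same length in both genotypes, 14 were longer in rpb-9 and 5 shorter, from -16 to 20 nt. Of 194 motif-independent loci among 552, 174 were the same, 10 longer and 10 shorter. At the rest of the 240 and 552 loci, the 2 libraries of at least 1 genotype differed from each other in their most read length. With reads pooled per genotype, 630 motif-dependent loci had at least 20 reads in each, and the most read length was longer in rpb-9 at 219 of them, shorter at 113 and the same at 298, with medians of 29 nt in rpb-9 and 28 nt in wild type. These counts were not tested.

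The 4 loci whose precursors are printed above are among the 14. At 21UR-4536, in an intron of Y57G11C.28, the 50-nt sequence took 14.7 and 14.3% of reads in rpb-9 against 2.60 and 3.16% in wild type. The 30-nt sequence took 4.59 and 1.86% in rpb-9 against 14.5 and 13.4% in wild type. In counts the 50-nt sequence had 16 and 23 reads in rpb-9 against 17 and 13 in wild type, and the 30-nt sequence 5 and 3 in rpb-9 against 95 and 55 in wild type. The locus as a whole fell, by 1.67 on the log2 scale (edgeR adjusted p = 0.0314), with an adjusted p of 0.0572 without rpb-9 replicate 1 and 0.0832 without wild type replicate 1.

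At 21UR-1490 the 31-nt sequence took 26.4 and 17.3% of reads in rpb-9 against 13.3 and 9.37% in wild type. At 21UR-2816 the 38-nt sequence took 26.2 and 28.7% in rpb-9 against 3.66 and 5.83% in wild type, although in rpb-9 replicate 2 the 30-nt sequence was read almost as often, at 85 against 86 reads. The abundance of 21UR-2816 differed little between genotypes, with a log2 fold change of -0.03 ± 0.35 (edgeR adjusted p = 0.959). At 21UR-4819 the 31-nt sequence took 20.3 and 33.3% in rpb-9 against 17.6 and 18.5% in wild type, with 13 against 12 reads for the 29-nt sequence in rpb-9 replicate 1. By mean length over distinct sequences, rpb-9 minus wild type was -1.24 nt at 21UR-4536 and -2.55 nt at 21UR-1490, the opposite direction. It was 1.48 nt at 21UR-2816 and 3.57 nt at 21UR-4819. None of these loci passed in limma.

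**Figure D5:**
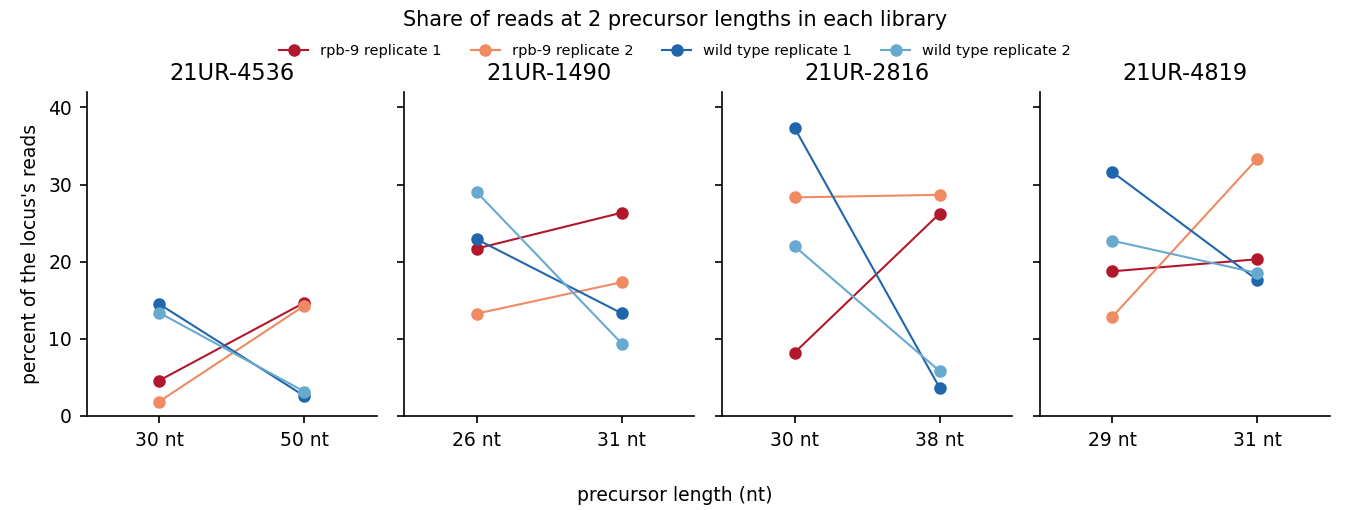
Percent of a locus's reads at the most read length of wild type (left) and of rpb-9 (right) for 4 motif-dependent loci, with 1 line a library and lengths in nt. The loci were chosen for a longer most read length in rpb-9. At 21UR-4536 all 4 lines cross, with 14.7 and 14.3% at 50 nt in rpb-9 and 14.5 and 13.4% at 30 nt in wild type; at 21UR-2816 one rpb-9 library is nearly level.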

How the data were processed

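Short capped RNA of chromatin from germ nuclei was sequenced as single-end reads of 75 nt. The authors deposited a table of piRNA precursors with 1 line for each sequence and library, holding the read count, the signal (the count scaled by a constant per library, which was recovered from the table; how it was set is not given in the sources used here) and the length. It lists only sequences that begin 2 nt before a piRNA. The aligner for these reads is not given in the sources used here, and the build in the submitters' processing notes is ce11. A separate table holds pooled log2(RPM + 1) of mature piRNAs, made by the authors. Columns of small RNA tables that could not be paired with samples (24) were not used.

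Repeated lines of the same library and position (3815) were dropped, which changes counts where they were real, and counts were summed per locus. Loci that reached 10 counts in 2 or more libraries entered the quasi-likelihood fit of edgeR 4.0.16 (R 4.3.3), with the constants as library sizes. Mean lengths per locus were tested with limma 3.58.1. Sums and medians were compared with exact permutation tests (scipy 1.17.1). DESeq2 1.42.0, TMM factors, other filters, a fit of all capped libraries, the replicate number as a block and leaving out each library were alternatives. A locus was named if it was among the 3 with most signal in wild type, the 3 largest falls or the 3 largest rises of its class with a mean of at least 20 counts, a piRNA the study names, or among the lowest p for length; others are said to be chosen after their values were seen, as are the most abundant loci outside structural RNA genes and the falls and rises with over 3 counts in every library. Members and lists were chosen with earlier results of these data known. Genes and coordinates are those of the reference annotation of WBcel235. No molecular identifiers are described, so PCR copies may count as reads.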

Additional observations from a re-analysis of the deposited data

How the results depend on the processing

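The direction of the class medians held in every alternative run, while the number of single loci called did not. Of 224 loci called (140 motif-dependent lower, 73 motif-independent higher), TMM factors called 151 (64 motif-dependent lower), DESeq2 with its size factors 367 (153 motif-independent higher), DESeq2 with the constants 366 (224 and 120), and no filter on low counts 402 (251 and 122). Keeping repeated lines gave 90 (53 and 33), and distinct sequences in place of reads 114 (59 and 46), the last with a filter of 3 sequences chosen after seeing the data. A fit of all 12 capped libraries gave 0 (0 and 0), as did an adjusted p under 0.01 with a log2 fold change over 1, although 870 loci had an unadjusted p under 0.05 in the fit of 4. Leaving out 1 library gave 36 to 365 calls, 17 to 292 motif-dependent lower and 14 to 54 motif-independent higher; an arm left with 1 library is assumed to vary like the other. Among the named loci, 12 lost their call without rpb-9 replicate 1, 4 without rpb-9 replicate 2, 10 without wild type replicate 1, 6 without wild type replicate 2 and 5 with TMM factors. With the replicate block 307 loci were called, 187 motif-dependent lower and 98 motif-independent higher; 204 of them were also called without it. Libraries of the same number deviated with a correlation of -0.05 over 2830 loci, and no label says whether they share more than a number. The cause of these differences was not tested.

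The motif-dependent median was -1.22 with TMM factors, -2.13 with no filter, -0.82 by distinct sequences and -1.77 to -0.94 with 1 library left out. The motif-independent median was 0.78 with TMM factors, 0.40 by distinct sequences and 0.36 to 0.65 with 1 library left out. The median log2 ratio of signal with a pseudocount of 1 was -1.17 for motif-dependent and 0.48 for motif-independent loci. For motif-dependent loci it was -1.56 with a pseudocount of 0.1, -0.36 with 10 and -0.37 over all loci. For motif-independent loci it was 0.19 with 10 and 0.22 over all loci. The log2 ratio of summed signal was -0.35 and 0.01 with structural RNA genes. Without them, alternatives chosen after seeing the data, it was -1.22 and 0.80, or -1.17 and 0.82 by CPM, and 0.62 for motif-independent loci without ndk-1 as well. With them and 1 library left out it was -0.81 to 0.33 for motif-dependent and -0.18 to 0.20 for motif-independent loci, with -0.16 without wild type replicate 1.

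The difference of median length over all sequences, 2.5 nt, was -17 nt by reads, 1 nt at loci read in all 4 libraries, 0 nt by reads without structural RNA genes and 2 to 3 nt with 1 library left out. For motif-dependent sequences it was 0 nt by reads with structural RNA genes and 2 nt with any library left out. For motif-independent sequences, -0.5 nt, it was -25 nt by reads, 0.5 nt for sequences with at least 2 reads and -1 to 0 nt with 1 library left out. The difference in the share of long motif-dependent sequences, 4.89 points, was 6.04 at a limit of 38 nt, 3.26 at 45 nt, -9.15 by reads with structural RNA genes and 4.57 to 5.22 with 1 library left out. In every alternative of the limma fit of length 0 loci passed, the replicate block included. The log2 fold change turned sign for 4 loci that were not called. That of 21UR-2844 was 0.027 with TMM factors and -0.75 to 0.62 with 1 library left out. That of 21UR-3338 was 0.00064 with TMM factors and -0.80 to 0.25 with 1 library left out. That of 21UR-2816 was 0.20 with TMM factors and -0.28 to 0.27 with 1 library left out. That of the motif-independent locus at chrII:8329042-8329062 was -0.73 to 0.14 with 1 library left out.

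With 2 libraries a genotype no exact test over libraries can pass, and 2830 of the 9948 loci held enough counts to enter the fit. A locus without a read is one not seen at this depth. The constants were taken as given.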

Other observations

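The bases downstream of the start were read from the reference for every locus outside structural RNA genes. From base 31 to 40 of the precursor 72.5 ± 15.2% of bases were A or T at 5567 motif-dependent loci, against 69.3 ± 15.8% at 4220 motif-independent loci (SD over loci). From base 41 to 50 the values were 71.4 ± 15.4% and 68.8 ± 16.3%. From base 11 to 20, within the mature piRNA, the values were 64.5 ± 14.5% and 62.0 ± 16.1%. These are values of the loci and not of a genotype.

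When every locus with at least 1 sequence in each of the 4 libraries was weighted by reads, an alternative chosen after seeing the data, 816 of 1306 motif-dependent loci were longer in rpb-9 and 483 shorter, with a median difference of 1.04 nt, and 0 passed in limma (132 at an unadjusted p under 0.05). These counts were not tested further.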
